A study of Mus musculus with 12 samples.

Results

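The 10 genes described here encode products that myeloid cells make at successive steps of maturation. Of these, 4 are primary granule genes (Mpo, Elane, Prtn3 and Ctsg) and 6 belong to later steps (S100a8, S100a9, Ngp, Camp, Ltf and Lyz2). They were chosen by name, with earlier results of these data known, and all 10 were among the 21885 genes of the deposited table.

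Primary, or azurophil, granules are the first to form, at the promyelocyte stage, and hold myeloperoxidase and the neutrophil serine proteases. Specific granules are filled later, at the myelocyte stage, with lactoferrin, the cathelicidin and related proteins, under control of factors of the C/EBP family, while PU.1 acts at both early and late myeloid genes. In the B lineage most of these genes are normally silent. Pax5 is known as the factor that commits progenitors to that lineage and shuts off genes of other lineages.

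The RNA-seq libraries came from 3 groups of 4 libraries of sorted mouse cells. Pax5 KO libraries were made from progenitors at the CLP and pre-pro-B stage, from fetal livers of the Pax5-/- genotype. Pax5 WT libraries were made from pro-B and pre-BI cells of Pax5+/+ fetal livers. P80R B-ALL libraries were made from GFP+ leukaemia cells that carry PAX5 P80R, a point mutant of the factor, and each came from a different primary recipient mouse (numbers 1300, 1301, 1302 and 1308). The labels used here do not say which vector or host was used for the leukaemias, whether each fetal liver library came from its own embryo, or what the ages were, so p-values measure the spread between these libraries. Pax5 KO and Pax5 WT differ in genotype and in the stage that was sorted, and P80R B-ALL differs from both in tissue as well. These differences cannot be told apart in any comparison below.

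Libraries held 24914250 to 43513852 reads counted to genes. In scaled read counts, Pax5 itself reached 229.9, 247, 267 and 266 in Pax5 KO, 847, 1146, 1316 and 255 in recipients 1300, 1301, 1302 and 1308, and 7315, 6359, 7067 and 6194 in Pax5 WT. The KO libraries fell by 4.73 on the log2 scale (limma, adjusted p = 7.2e-13), in the direction of their label, and reads over the deleted part were not separated from the rest. The summed level of 10 B-lineage markers was 48384 to 49981 in Pax5 KO, 77851 to 191332 in P80R B-ALL and 245209 to 288211 in Pax5 WT.

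The 250 bases upstream of the annotated start are shown for 4 of the genes, because Mpo and Elane exchanged their order per transcript length between Pax5 KO and P80R B-ALL libraries, while S100a8 and Ngp had the largest tested differences of the leukaemias from WT and KO cells. The sequences are from RefSeq on GRCm38.p6, an older build than the mm39 of the reads, and are written 5′ to 3′ in the direction of transcription. Capitals mark matches on either strand to TTNCNNAA, a short form of the C/EBP motif, and to GAGGAA, a core of the PU.1 motif.
Mpo, chr11:87793534-87793783, plus strand: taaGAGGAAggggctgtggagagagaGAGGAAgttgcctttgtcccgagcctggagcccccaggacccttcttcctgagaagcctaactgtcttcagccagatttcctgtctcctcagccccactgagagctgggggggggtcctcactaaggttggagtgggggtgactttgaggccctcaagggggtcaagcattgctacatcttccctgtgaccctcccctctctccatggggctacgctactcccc
Elane, chr10:79886062-79886311, plus strand: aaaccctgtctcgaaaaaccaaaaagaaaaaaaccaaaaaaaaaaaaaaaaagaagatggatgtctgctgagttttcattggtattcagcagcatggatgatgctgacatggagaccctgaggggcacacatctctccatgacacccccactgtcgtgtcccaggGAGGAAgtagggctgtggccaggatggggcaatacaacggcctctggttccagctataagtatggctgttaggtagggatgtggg
S100a8, chr3:90668821-90669070, plus strand: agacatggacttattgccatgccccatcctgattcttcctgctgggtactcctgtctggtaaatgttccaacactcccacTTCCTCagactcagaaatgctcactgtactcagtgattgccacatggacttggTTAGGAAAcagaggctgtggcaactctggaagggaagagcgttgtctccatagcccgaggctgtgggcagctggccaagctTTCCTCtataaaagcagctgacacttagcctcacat
Ngp, chr9:110419558-110419807, plus strand: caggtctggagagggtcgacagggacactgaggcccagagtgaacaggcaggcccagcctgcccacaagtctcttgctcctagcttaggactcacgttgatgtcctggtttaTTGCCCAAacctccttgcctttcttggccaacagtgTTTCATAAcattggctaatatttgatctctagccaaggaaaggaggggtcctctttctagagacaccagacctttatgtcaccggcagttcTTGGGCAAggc

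All 10 genes had an upstream sequence in that table. GAGGAA was present upstream of 6 of 10, which included every primary granule gene (Mpo, Elane, Prtn3 and Ctsg) together with S100a8 and Ltf, and it was present in 23.3% of all 32851 upstream sequences of the same length. TTNCNNAA was present upstream of 5 of 10 (S100a8, S100a9, Ngp, Ltf and Lyz2) and of none of the primary granule genes, against 36.8% of all upstream sequences. The capitals above show this split, with GAGGAA alone upstream of Mpo and Elane, TTNCNNAA alone upstream of Ngp, and both upstream of S100a8. Neither motif was found upstream of Camp. Among the other motifs searched on both strands, the MYB core AACTG was present upstream of 5 of 10 against 39.1% of all. The RUNX core TGTGGT was present upstream of 3 against 14% of all, and the TATA motif TATAAA upstream of 2 against 12.4% of all. A match describes the letters in this window and was not tested as a binding site.

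In the fetal liver progenitors without Pax5, the primary granule genes Mpo and Prtn3 were expressed at scaled counts of 1777 to 5124, Lyz2 reached 1675 to 1879, and the other 7 genes did not exceed 204. In the Pax5 WT cells only Lyz2 was above 20 in any library, and Elane, S100a8, S100a9, Ngp, Camp and Ltf had no read in any of the 4 libraries. With limma on log2(value + 1), 9 of 9 tested members were higher in KO progenitors, against a background of 35.7% of the 12200 tested genes that were higher in this comparison (29.1% were lower, and 64.8% were called in either direction). Camp reached a value of 10 in fewer than 4 libraries and was therefore not tested. Of the tested members, 5 had no read in WT pro-B cells and passed the filter only through the other groups. Mpo and Ctsg, at most 4.00 and 2.00 in WT pro-B cells, passed it in the same way. The calls of all these members therefore follow in part from the filter. In these sorted bulk samples, fewer expressing cells and less RNA per cell cannot be told apart.

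**Figure D1:**
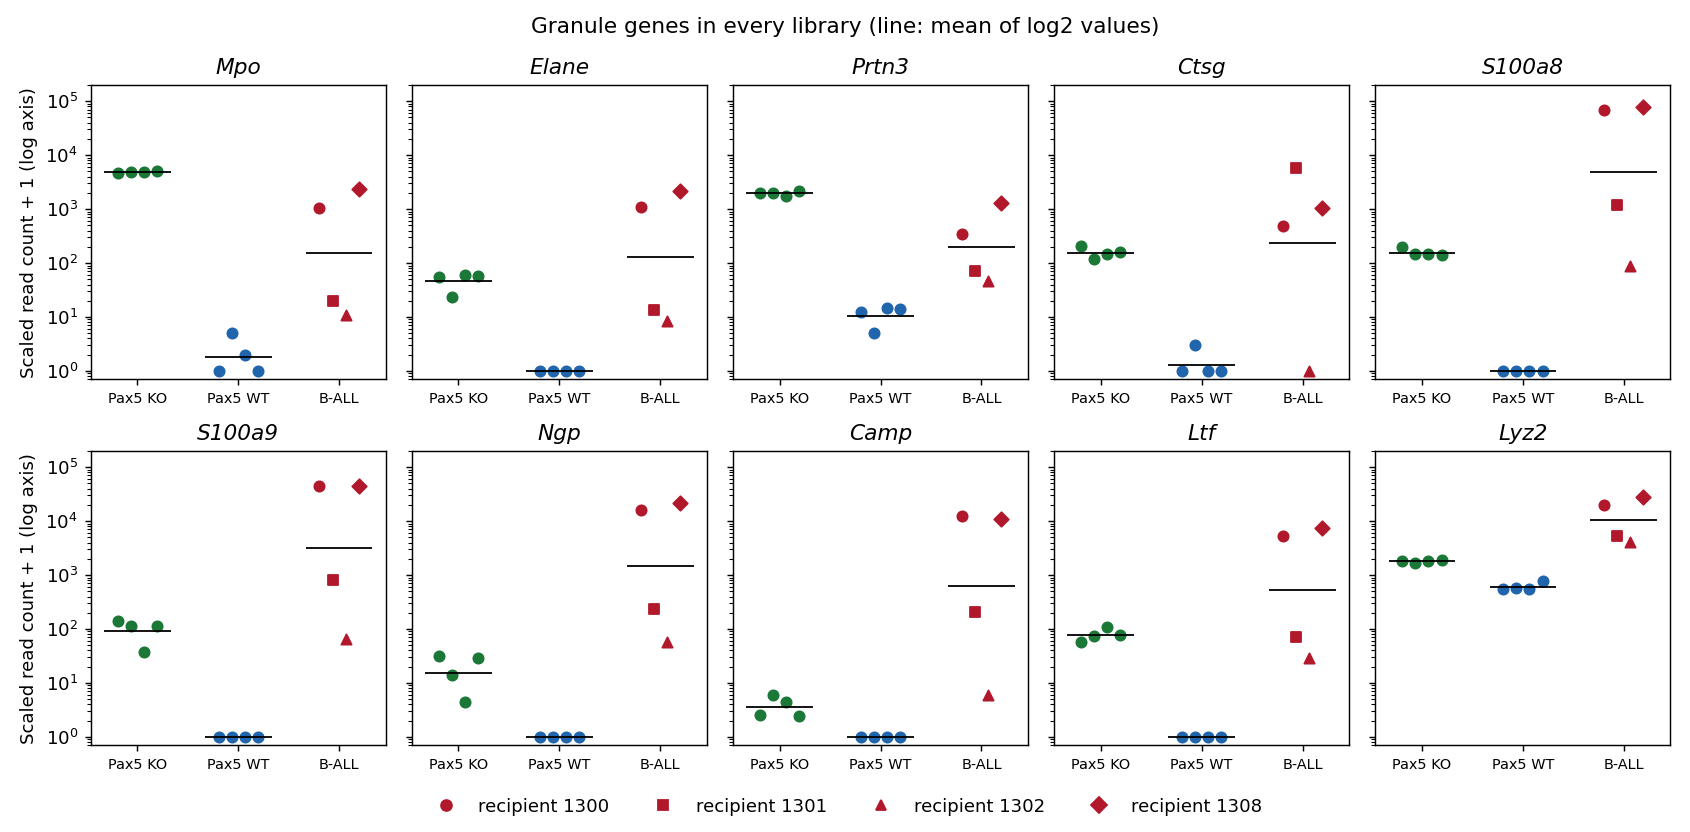
Scaled read count plus 1 (log axis) of the 10 genes in each of the 12 libraries, grouped as Pax5 KO, Pax5 WT and P80R B-ALL, with marker shapes for the 4 recipients and a line at the mean of the log2 values. The KO libraries lie close together for Mpo (4655 to 5124), 6 genes are at 0 in all Pax5 WT libraries, and recipients 1300 and 1308 lie above 1301 and 1302 for every gene but Ctsg.

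Mpo encodes myeloperoxidase, the haem enzyme that makes hypochlorous acid in azurophil granules. Its values were 4655, 4856, 4887 and 5124 in the KO libraries and 0, 4.00, 0.989 and 0 in the WT libraries, where 5 reads were counted in all. The groups did not overlap, and the mean of 4880.3 ± 192 (SD, n = 4) was 3912 times that of Pax5 WT, a difference of 11.42 ± 0.43 (log2, SE) with limma (adjusted p = 4.2e-10).

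Prtn3 encodes proteinase 3, a serine protease of the same granules. It was at 1960.4, 1961, 1777 and 2174 in KO progenitors and at 11.3, 4.00, 13.8 and 12.9 in WT pro-B cells. Every KO library was above every WT library, and the means of 1968 ± 162 and 10.5 ± 4.47 (SD, n = 4 each) differed 187-fold (limma log2 difference 7.53 ± 0.30 SE, adjusted p = 6.66e-10). Prtn3 overlaps Plppr3 on the opposite strand by 159 bases in the annotation, and the libraries do not mark strand, so reads of the shared stretch cannot be assigned. Plppr3, which encodes a phospholipid phosphatase-related protein, was at 4512 to 5099 in KO progenitors and at 137 to 254 in WT pro-B cells. Mpo overlaps an antisense gene, Gm11505, by 512 bases in the annotation, with the same limit.

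Elane encodes neutrophil elastase and lies next to Prtn3. Its KO values of 54.8, 22.2, 59.1 and 57.1 rested on 27 to 79 reads per library, and no read was counted in WT pro-B cells. With 3 reads per library as the floor for 0 reads, Elane was at least 17-fold higher in KO progenitors (limma adjusted p = 4.88e-07).

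Ctsg encodes cathepsin G, a chymotrypsin-like protease of the granule. It was at 204, 119, 145 and 156 in KO progenitors, and 2 reads in a single library made up its whole Pax5 WT signal. The ratio of means was 312, with an exact interval from 91.07 to 2716 at the 95% level that covers counting error only (limma log2 difference 6.87 ± 0.44 SE, adjusted p = 4.93e-08).

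S100a8 and S100a9 encode the subunits of calprotectin, a calcium- and zinc-binding complex of the cytosol of neutrophils and monocytes and not a granule protein in the strict sense. S100a8 was at 195, 145, 144 and 137 in KO progenitors, at least 54.6-fold above the WT floor (limma adjusted p = 2.53e-09). S100a9 was at 142, 115, 36 and 111, at least 35.4-fold above it (adjusted p = 1.58e-07). The third KO library was the lowest for S100a9 and not for S100a8.

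The specific granule genes had the lowest levels per transcript length of the later genes in the KO libraries. Ltf encodes lactoferrin, the iron-binding protein of these granules, and was at 56.3, 73.1, 109.7 and 78.0, at least 27.9-fold above the floor (limma adjusted p = 3.3e-08). Ngp, which encodes neutrophilic granule protein, a relative of the cathelicidins, was at 31.2, 13.1, 3.43 and 27.4, at least 6.61-fold above it (adjusted p = 0.000205). The Ngp call was lost in a fit to all 12 libraries (adjusted p = 0.0777). Camp, the single mouse cathelicidin, had 2, 6, 4 and 2 reads in the KO libraries, a mean of 2.83 that lies below the floor, and no fold is given. Without the filter its adjusted p was 0.00268 (limma).

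Lyz2 encodes lysozyme M, which granulocytes, monocytes and macrophages share, and it was the only member with a clear signal in WT pro-B cells. It was at 1823, 1675, 1851 and 1879 in KO progenitors and at 556, 585, 541 and 788 in WT pro-B cells. The groups did not overlap, and the means of 1807 ± 90.9 and 617 ± 115 (SD, n = 4 each) differed 2.93-fold (limma log2 difference 1.56 ± 0.11 SE, adjusted p = 1.54e-07), the smallest of the 9 tested differences. Lyz1, its adjacent paralog, was at 0 to 2.57 in the fetal liver libraries. The longest coding transcripts of Lyz2 and Lyz1 were 92.0% identical, with a longest shared run of 118 bases, so the split of reads between them is uncertain. Every KO library was above every WT library for 10 of 10 members, against 32.4% of tested genes (26.7% lay below). Camp is counted here although it was not tested. Elane, S100a8, S100a9, Ngp, Camp and Ltf had no WT read, so any read in each KO library gives this order.

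The leukaemias expressed the set above the Pax5 WT level, except for Ctsg in recipient 1302, with the largest log2 differences for S100a8, S100a9 and Ngp. Levels differed widely between the 4 leukaemias. With limma, 9 of 9 tested members were higher in P80R B-ALL than in WT pro-B cells, against 21.0% of all tested genes higher, 18.9% lower and 39.9% called in either direction. Here too, Elane, S100a8, S100a9, Ngp and Ltf had no read in WT pro-B cells and passed the filter only through the other groups. Mpo and Ctsg, at most 4.00 and 2.00 in WT pro-B cells, also passed it only through the other groups. Every B-ALL library was above every WT library for 9 of 10 members (all but Ctsg), against 21.2% of tested genes (19.4% lay below). Camp is counted here although it was not tested, and it had 4 reads in recipient 1302. With no WT read for it or for Elane, S100a8, S100a9, Ngp and Ltf, any read in each B-ALL library gives this order.

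S100a8 was at 67554 in recipient 1300, 1190.0 in 1301, 86.8 in 1302 and 77275 in 1308, and at 0 in all Pax5 WT libraries. Recipients 1300 and 1308 were within 1.14-fold of each other, while 1301 was 13.7 times 1302. The mean of 36526 ± 41632 (SD, n = 4) was at least 12836-fold above the WT floor, and the log2 difference was 12.24 ± 1.98 (limma, SE, adjusted p = 0.00161).

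S100a9 followed the same order, at 44004, 812, 64.5 and 45110.1 in recipients 1300, 1301, 1302 and 1308, at least 7906-fold above the floor (limma adjusted p = 0.00175). Ngp was at 16369, 230.1, 55.8 and 21835 (at least 3381-fold, adjusted p = 0.00192). Camp was at 12484, 206, 4.96 and 10778, a mean at least 2062-fold above the floor. It was untested under the filter, and without a filter its adjusted p was 0.0118. Ltf was at 5343, 68.9, 28.5 and 7319 (at least 1121-fold, adjusted p = 0.00307). All 5 genes therefore had a pair of high libraries, 1300 and 1308, and a pair of lower ones, with 1302 the lowest in each.

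Lyz2 was at 19701, 5202, 4017 and 27986 in the same order of recipients. The range between leukaemias was 6.97-fold, the narrowest of the 10 genes, and every B-ALL library exceeded every KO and WT library. The mean of 14226 ± 11619 (SD, n = 4) was 23.0 times that of Pax5 WT (limma log2 difference 4.08 ± 0.58 SE, adjusted p = 0.000819). Lyz1 was at 10.5, 3.69, 16.1 and 69.2.

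Among the primary granule genes, Mpo was at 1054, 18.5, 9.92 and 2357 in recipients 1300, 1301, 1302 and 1308. Its mean of 859.9 ± 1112 (SD, n = 4) was 689 times that of Pax5 WT (limma log2 difference 6.42 ± 1.70 SE, adjusted p = 0.0153). Elane was at 1081, 12.3, 7.44 and 2159, at least 286-fold above the WT floor (adjusted p = 0.0111). Prtn3 was at 344, 70.1, 44.7 and 1270.4, 41.1 times the WT mean (log2 difference 4.19 ± 0.99 SE, adjusted p = 0.00849). All 3 had the order of S100a8, with 1308 highest, then 1300, 1301 and 1302.

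Ctsg departed from that order. It was at 494 in recipient 1300, 5652 in 1301, 0 in 1302 and 1061 in 1308, so the highest library was 1301 and recipient 1302 had no read, which allows up to 3.72 on the scaled count. The log2 difference from Pax5 WT was 7.47 ± 2.28 (limma, SE, adjusted p = 0.0283), and the ratio of means was 3602 with a counting interval from 1052 to 31370. The call was lost on leaving out recipient 1300 (adjusted p = 0.0575), 1301 (0.0632) or 1308 (0.0606), or any single Pax5 WT library (0.0558 to 0.0725).

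Without recipients 1300 and 1308, a choice made after the data were seen, 8 of 9 tested members were still higher than in WT pro-B cells. In that fit, 2745 of the 12200 tested genes were higher and 2554 lower. The S100a8 difference was then 8.34 (limma, adjusted p = 0.000882), that of Mpo 3.04 (adjusted p = 0.0263), and that of Lyz2 2.90 on the log2 scale. Ctsg was the member that did not pass (adjusted p = 0.152).

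Against the Pax5 KO progenitors the P80R B-ALL libraries had less Mpo and Prtn3 and more Ngp and Lyz2. With limma, 2 of 9 tested members were higher (Ngp and Lyz2) and 2 lower (Mpo and Prtn3), against 17.6% of all tested genes higher and 20.8% lower (38.4% called), so the counts of members are near those of all genes. Without recipients 1300 and 1308, 2 were higher and 3 lower, beside 2582 and 3389 of the 12200 tested genes. This comparison shares its B-ALL libraries with the one above and its KO libraries with the first.

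**Figure D2:**
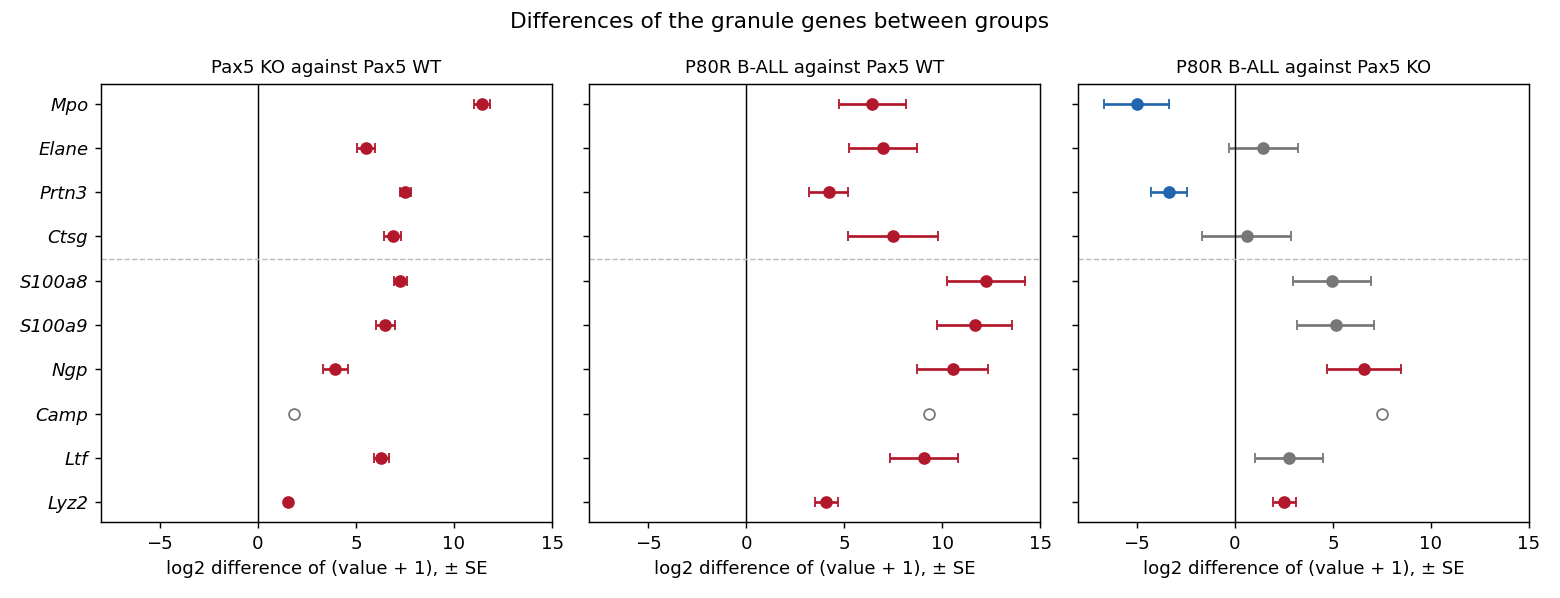
Log2 difference of (value + 1) with its SE for the 10 genes in the 3 comparisons, from limma, with red for higher, blue for lower, grey for not past the threshold and open circles for Camp, which was untested. The fits in the third panel run from -5.01 for Mpo to 6.57 for Ngp among tested genes, and the primary and later genes are divided by a dashed line.

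All B-ALL libraries were below all KO libraries for Mpo and for Prtn3, 2 of 10 members against 22.9% of tested genes. The KO mean of Mpo was 5.68 times the B-ALL mean (limma log2 difference -5.01 ± 1.63 SE, adjusted p = 0.0392) and that of Prtn3 was 4.55 times (-3.34 ± 0.92 SE, adjusted p = 0.0207). The Mpo call was also lost without recipient 1302 (adjusted p = 0.0757). Both calls were lost with edgeR on recovered reads (adjusted p = 0.175 and 0.0989) and on leaving out recipient 1301 (0.0937 and 0.0524) or any single KO library (0.0806 to 0.0858 for Mpo and 0.05004 to 0.0537 for Prtn3). Plppr3, which overlaps Prtn3, was lower as well, at 313 to 722 in B-ALL (log2 difference -3.21 ± 0.26 SE, adjusted p = 0.000113).

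All B-ALL libraries were above all KO libraries for Ngp, Camp and Lyz2, 3 of 10 members against 19.5% of tested genes. For Camp this rested on 4.96 (4 reads) in recipient 1302 against 4.93 (6 reads) in KO library 2, and on CPM the order of these libraries turned (0.153 against 0.155), which leaves Ngp and Lyz2. Ngp differed by 6.57 ± 1.88 (limma log2, SE, adjusted p = 0.0244), and this call was lost without KO library 2 (adjusted p = 0.0592), KO library 3 (0.0698) or recipient 1300 (0.0518). Lyz2 differed by 2.52 ± 0.58 (adjusted p = 0.0103), a 7.87-fold ratio of means, and kept its call in all 17 alternatives run. Camp differed by 7.48 and was untested, and its adjusted p without the filter was 0.0336.

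S100a8 and S100a9 overlapped between these groups, because recipient 1302 lay among or below the KO libraries. Their differences of 4.96 ± 1.97 and 5.14 ± 1.95 (limma log2, SE) did not pass (adjusted p = 0.0758 and 0.0656). Without recipient 1302 they passed (adjusted p = 0.00603 and 0.00613), as they did with edgeR (0.0146 and 0.0152) and in the limma fit to all 12 libraries (0.0290 and 0.0239). Each of them passed in 4 of the 17 alternatives run. Without recipients 1300 and 1308 their differences were 1.06 and 1.34 (limma log2, adjusted p = 0.353 and 0.295). Ltf did not pass either (2.77 ± 1.73 SE, adjusted p = 0.233), with recipient 1301 at 68.9 inside the KO range of 56.3 to 109.7. Of the 17 alternatives run, it passed in 2, with edgeR (5.39, adjusted p = 0.0311) and with DESeq2 (5.40, adjusted p = 0.000474). Without recipients 1300 and 1308 its difference was -0.78 (limma log2, adjusted p = 0.176).

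Elane and Ctsg had no consistent side. Elane was above every KO library in recipients 1300 and 1308 and below every one in 1301 and 1302, and its difference was 1.46 ± 1.77 (limma log2, SE, adjusted p = 0.539). Without recipients 1300 and 1308 it turned to -2.12 (adjusted p = 0.0157), while with DESeq2 on recovered reads it passed as higher (4.14, adjusted p = 0.0112). Ctsg differed by 0.60 ± 2.26 (limma log2, SE, adjusted p = 0.855), and without recipient 1302 it passed as higher (3.22, adjusted p = 0.0112). Without recipients 1300 and 1308, Mpo and Prtn3 were at -8.39 and -5.11 on the log2 scale against Pax5 KO (adjusted p = 4.14e-06 and 1.49e-05).

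To compare genes with each other, reads were divided by the length of the longest coding transcript and by library depth (RPKM). On this scale Prtn3 (61.4 ± 5.28) and Mpo (56.7 ± 1.75) led in KO progenitors and their libraries overlapped. Lyz2 (43.9 ± 2.62) came next, followed by S100a8 (10.2 ± 1.98), S100a9 (6.23 ± 2.87) and Ctsg (4.99 ± 1.25), of which S100a9 and Ctsg overlapped. Elane (1.57 ± 0.58) and Ltf (0.92 ± 0.25) overlapped, as did Ltf with Ngp (0.50 ± 0.35) and Ngp with Camp (0.12 ± 0.069, SD, n = 4 for each gene).

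In Pax5 WT the level of Lyz2 was 14.1 ± 2.42 and that of Prtn3 0.31 ± 0.13 RPKM, with Mpo and Ctsg below both and the other 6 genes at 0. In recipient 1300 the levels ran from S100a8 (4243) through S100a9 (2588), Camp (503), Lyz2 (457), Ngp (409), Ltf (59.5), Elane (33.5), Ctsg (15.1) and Mpo (11.7) to Prtn3 (10.3). Recipient 1308 had the same leading pair, S100a8 at 4262 and S100a9 at 2329.5.

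The order differed in the other leukaemias. In recipient 1301 Ctsg led at 156, ahead of Lyz2 (109), S100a8 (67.7) and S100a9 (43.3), with Mpo last at 0.19. In recipient 1302 Lyz2 led at 94.1, and the next gene, S100a8, was at 5.51. The set as a whole took 0.514% of reads in recipient 1300 and 0.528% in 1308, against 0.0372% in 1301, 0.0133% in 1302, 0.0283% to 0.0310% in KO progenitors and 0.00168% to 0.00236% in WT pro-B cells.

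**Figure D3:**
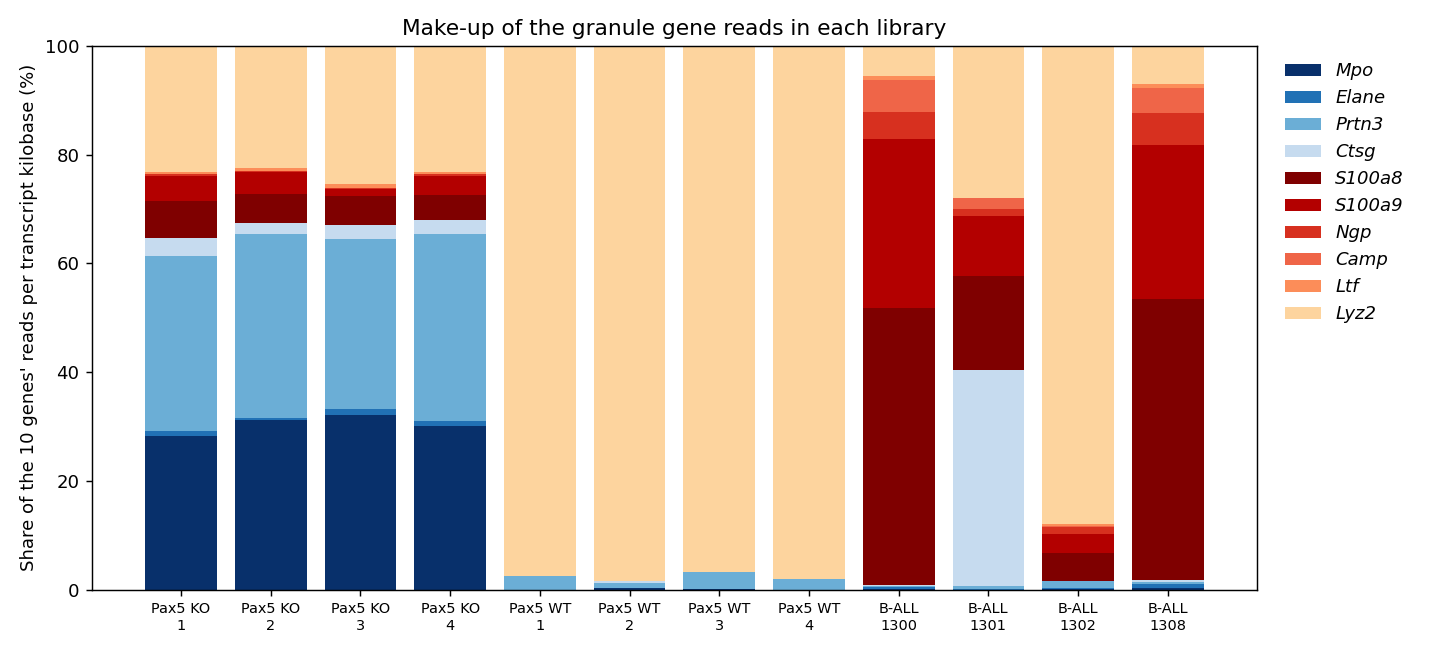
Share of the 10 genes' reads per transcript kilobase (%) that each gene took in the 12 libraries, with primary granule genes in blue and later genes in red to yellow. The primary genes make up 64.7% to 68.0% in KO progenitors and 0.847% to 40.4% in the leukaemias, and Ctsg fills most of that share in recipient 1301.

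Per transcript length, the primary granule genes made up 64.7% to 68.0% of the set in KO progenitors and 1.63% to 3.26% in WT pro-B cells. In the leukaemias their share was 0.847% (recipient 1300), 40.4% (1301), 1.58% (1302) and 1.74% (1308). The later genes other than Lyz2 made up 7.46% to 12.1% in KO progenitors, 93.7% in recipient 1300 and 91.3% in 1308, 31.7% in 1301 and 10.5% in 1302. Recipient 1302 lay within the range of the KO libraries for that share.

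Ratios between members showed which genes moved as a pair. S100a9 per S100a8 was 0.234 to 0.754 in KO progenitors and 0.547 to 0.696 in the 4 leukaemias, although S100a8 itself spanned a range from 5.51 to 4262 RPKM. Elane per Mpo was 0.0128 to 0.0338 in KO progenitors, against 2.86 in recipient 1300, 2.56 in 1308 and 1.86 in 1301, where it rested on 10 Elane and 15 Mpo reads. These 3 values lay above the KO range, and no ratio to Mpo was computed for recipient 1302, with 8 Mpo reads. Ctsg per Mpo was 0.0674 to 0.120 in KO progenitors, 1.29 in recipient 1300, 1.24 in 1308 and 840 in 1301. The ratio of S100a8 to Mpo was 0.152 to 0.237 in KO progenitors and 186 to 365 in these 3 leukaemias.

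The ratio of recipient 1308 to 1300 was 0.863 to 1.42 for the 6 later genes and 2.00 to 3.69 for the 4 primary genes. The ratio of 1301 to 1302 was 41.4 for Camp, 13.7 for S100a8 and 12.6 for S100a9, and it was 1.30 to 4.12 for the other genes with reads in both.

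Some other marker sums moved with the same libraries. The 9 neutrophil markers of the list named neutrophil surface summed to scaled counts of 4827 in recipient 1300 and 7398 in 1308. The sums were 320.0 in 1301, 291.5 in 1302, 149 to 195 in KO progenitors and 26.7 to 55.0 in WT pro-B cells. Retnlg and Cd177, which mark mature neutrophils, were at 2807 and 714 in recipient 1300 and at 2117 and 1413 in 1308. They were at 0 to 27.1 in 1301 and 1302, and at 0 in all fetal liver libraries. Neither was tested, and Retnlg alone gave 2807 of the 4827 in recipient 1300. Of the 9 markers, 4 were tested. Against Pax5 KO, Mmp9 was higher with limma and Csf3r, Itgam and Cxcr2 did not pass, beside 17.6% of tested genes higher and 20.8% lower. Without recipients 1300 and 1308, 1 was higher and 2 lower, beside 2582 and 3389 of the 12200 tested genes. Against Pax5 WT, Mmp9 and Cxcr2 were higher and none lower, beside 21.0% and 18.9%.

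The 9 erythroid markers followed the same split, at 411017 in recipient 1300 and 1066650.0 in 1308 against 38847 in 1301 and 32561 in 1302 (209 to 266 in KO progenitors and 105 to 189 in WT pro-B cells). The 6 megakaryocyte markers were at 2218 and 8988 against 135 and 59.5. The 16 monocyte and macrophage markers did not follow it, at 5533 in 1300, 9730.4 in 1301, 11081 in 1302 and 155854 in 1308. B-lineage markers were lower in 1300 (77851) and 1308 (95569) than in 1301 (191332) and 1302 (136434). The 10 plasmacytoid dendritic markers were at 21079.9, 54554, 38873 and 374146 in recipients 1300, 1301, 1302 and 1308. Among the neutrophil markers, Fpr2, Retnlg and Cd177 were at 0 in every KO and WT library, and Fpr1 and Csf3r were at 0 in every WT library but not in every KO library. Among the macrophage markers, C1qc, Vsig4 and Timd4 were at 0 in both fetal liver groups, and they are named here for that reason. No marker of these lists was at 0 in all B-ALL libraries, and the part of any other cell type in the granule gene levels was not tested.

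**Figure D4:**
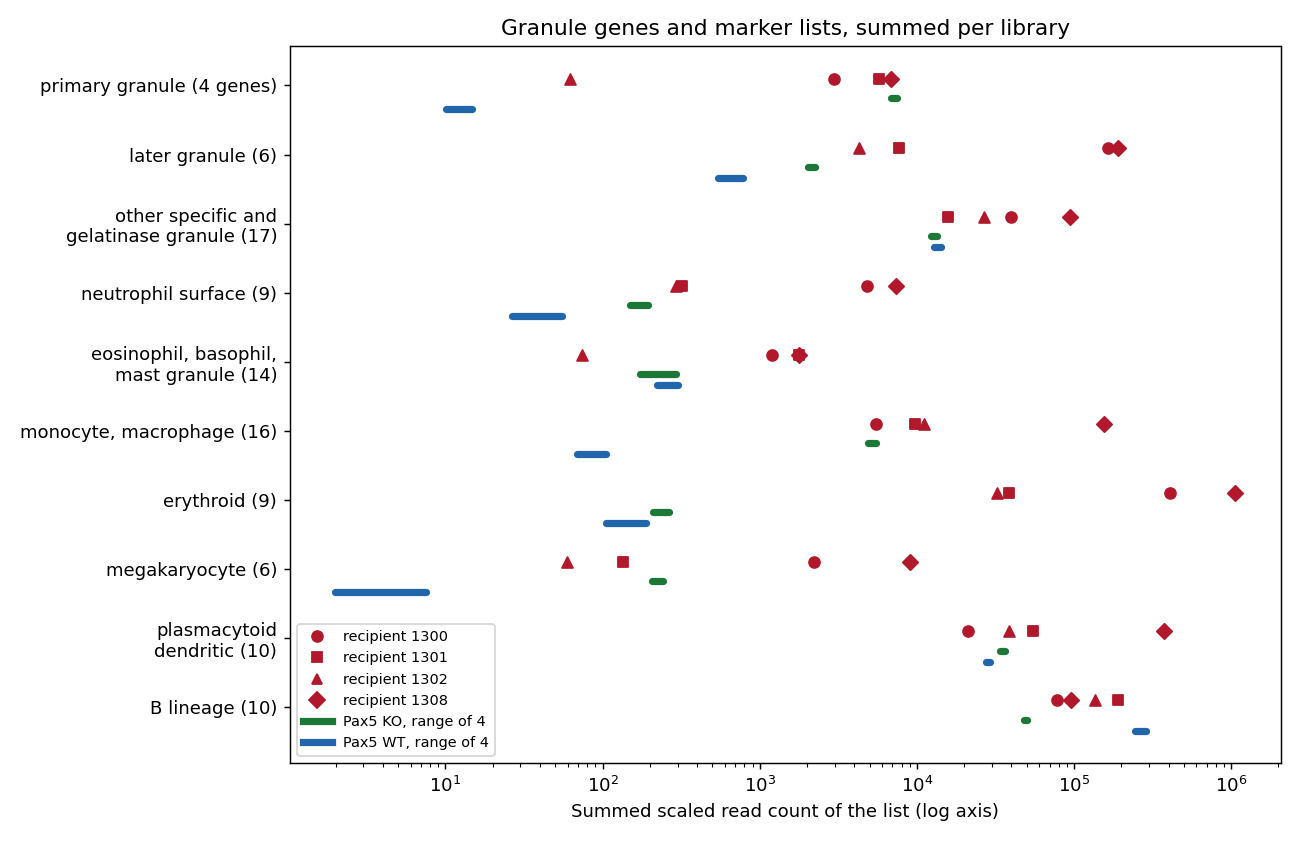
Summed scaled read count (log axis) of the primary and later granule genes and of 8 other gene lists, with 1 marker per recipient and bars for the range of the 4 Pax5 KO and 4 Pax5 WT libraries. Recipients 1300 and 1308 are the highest for the later granule genes, neutrophil surface, erythroid and megakaryocyte markers, and the lowest for B-lineage markers among the leukaemias.

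Other genes of the primary granule were counted from a list of 12, of which 11 were tested. In KO against WT cells, 7 were higher and 2 lower, where 35.7% of all tested genes were higher and 29.1% lower (median 0.55 log2 against 0.06 over all tested genes, and unchanged at 0.55 with genes at 0 set to their bound). In the fit to all 12 libraries, 5 were higher and none lower, beside 2449 and 1744 of the 12200 tested genes in that fit. In P80R B-ALL against WT cells, 5 were higher and none lower, beside 21.0% and 18.9% of all tested genes (median 1.07 against -0.0036). The counts were the same without recipients 1300 and 1308, beside 2745 and 2554 of the 12200 tested genes. In P80R B-ALL against KO cells, 2 were higher and 1 lower, where 17.6% of all tested genes were higher and 20.8% lower (median 0.16 against -0.11). These counts were 4 and 2 without those recipients, beside 2582 and 3389 of the 12200 tested genes. They were 4 and 1 with edgeR (2519 and 1833 of all tested genes) and in the fit to all 12 libraries (2633 and 3255).

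Prss57, a serine protease stored with elastase, was at 1253 ± 76.4 in KO progenitors and 138 ± 17.6 in WT pro-B cells (SD, n = 4 each, limma log2 difference 3.18 ± 0.11 SE, adjusted p = 2.26e-10). In the leukaemias Prss57 was highest in recipient 1301, at 2619 against 614, 535 and 918 in 1300, 1302 and 1308. Ms4a3, a membrane protein of granulocyte-monocyte progenitors, was at 26.7 to 42.0 in KO progenitors and at 0 in WT pro-B cells. Ms4a3 was at 398 and 761 in recipients 1300 and 1308 and at 0 in 1301 and 1302.

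Of 17 further genes of specific and gelatinase granules, 14 were tested. In KO against WT cells, 10 were higher and 2 lower, where 35.7% of all tested genes were higher and 29.1% lower (median 2.16, or 1.19 with genes at 0 set to their bound, against 0.06 over all tested genes). In the fit to all 12 libraries, 4 were higher and 1 lower, beside 2449 and 1744 of the 12200 tested genes in that fit. In P80R B-ALL against WT cells, 7 were higher and none lower, beside 21.0% and 18.9% of all tested genes (median 3.52 against -0.0036). The counts were 8 and 2 without recipients 1300 and 1308, beside 2745 and 2554 of the 12200 tested genes. In P80R B-ALL against KO cells, 5 were higher and none lower, beside 17.6% and 20.8% of all tested genes (median 1.53 against -0.11). The counts were 4 and 4 without those recipients, beside 2582 and 3389 of the 12200 tested genes. With edgeR on recovered reads, 8 were higher in this last comparison and none lower, beside 2519 and 1833 of the 12200 tested genes.

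Lcn2, the iron-siderophore carrier lipocalin 2, was at 2392, 64.0, 12.4 and 3519 in recipients 1300, 1301, 1302 and 1308, at 3.29 to 12.3 in KO progenitors and at 0 in WT pro-B cells. Its difference between P80R B-ALL and Pax5 KO was 5.53 ± 1.68 (limma log2, SE, adjusted p = 0.0295), lost on leaving out recipient 1300 (0.0667), recipient 1308 (0.0534) or any KO library (0.0523 to 0.0756). Hp, which encodes haptoglobin, was at 622, 199, 86.8 and 1616 in the leukaemias and at 28.3 to 44.9 in KO progenitors (log2 difference 3.35 ± 0.80 SE, adjusted p = 0.0112). The order of recipients for Lcn2 and Hp was that of S100a8.

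Regulators of granulocyte development were counted in the same way. Of 18 tested, 12 were higher and 4 lower in KO progenitors than in WT pro-B cells, beside 35.7% and 29.1% of all tested genes. In P80R B-ALL, 1 was higher and 6 lower than in KO progenitors, beside 17.6% and 20.8% of all tested genes. The counts were 1 and 14 without recipients 1300 and 1308, beside 2582 and 3389 of the 12200 tested genes. With edgeR they were 1 and 3, beside 2519 and 1833. Against Pax5 WT, 6 were higher and 2 lower in P80R B-ALL, beside 21.0% and 18.9%. The counts were 5 and 6 without those recipients, beside 2745 and 2554 of the 12200 tested genes. The medians were 1.17, -0.83 and 0.18 on the log2 scale, against 0.06, -0.11 and -0.0036 over all tested genes.

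Cebpa, needed for the step from common to granulocytic progenitors, was at 46.4 to 88.3 in KO progenitors, at 0 to 1.00 in WT pro-B cells, and at 5.26, 28.3, 47.1 and 195 in recipients 1300, 1301, 1302 and 1308. Recipient 1300, which was high in all later granule genes, was the lowest for Cebpa. Cebpb, a C/EBP factor of stress granulopoiesis and macrophages, was at 607 to 696 in KO progenitors, 2.00 to 13.8 in WT pro-B cells and 97.3, 76.3, 28.5 and 385 in the leukaemias (limma log2 difference of B-ALL from KO -2.78 ± 0.65 SE, adjusted p = 0.0103).

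Cebpe, which drives specific granule genes, was at 108 in recipient 1300 and 169 in 1308 and had no read in 1301, 1302 or any Pax5 WT library. In Pax5 KO it was at 0 to 3.05, and it missed the filter. Its high libraries were the same as those of Ngp, Camp and Ltf. Gfi1, a repressor needed for neutrophil formation, was at 194 to 244 in KO progenitors and 509 to 738 in WT pro-B cells (limma log2 difference -1.44 ± 0.13 SE, adjusted p = 1.19e-06), and at 280.0, 224, 232 and 44.3 in the leukaemias. Spi1, which encodes PU.1, was at 4366 to 5073 in KO progenitors, 2426 to 2546 in WT pro-B cells and 1822, 2058, 2995 and 5614 in the leukaemias. Csf3r, the receptor for G-CSF, was at 7.22 to 38.1 in KO progenitors, 0 in WT pro-B cells, and 36.8, 0, 2.48 and 118 in the leukaemias. Runx1, a factor of both lymphoid and myeloid progenitors, was at 7561 to 7813 in KO progenitors and 2076 to 3872 in the leukaemias.

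Ctsg and its neighbour Mcpt8, a protease of basophils, had the same order of the 4 recipients. Mcpt8 was at 49.3 to 102 in KO progenitors, at 0 in WT pro-B cells, and at 313, 1623, 0 and 365 in recipients 1300, 1301, 1302 and 1308, against 494, 5652, 0 and 1061 for Ctsg. Prss34, another basophil protease, was at 414 and 444 in recipients 1300 and 1308 and at 2.46 in 1301, so it did not share that order. Of 14 granule genes of eosinophils, basophils and mast cells, 6 were tested. In P80R B-ALL against WT pro-B cells, 4 were higher and 1 lower, beside 21.0% and 18.9% of all tested genes. The median difference of the 6 genes was 4.11, or 3.14 with genes at 0 set to their bound, against -0.0036 over all tested genes. The counts were 2 and 1 without recipients 1300 and 1308, beside 2745 and 2554 of the 12200 tested genes. Cfd, which lies next to Elane and encodes complement factor D, was at 3.94, 8.61, 7.44 and 152 in the leukaemias and at 0 to 1.44 in the fetal liver libraries.

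Genes with the most similar profile over the 12 libraries were ranked by Pearson's r of log2(value + 1), as a description with no test, since the libraries share groups and depth. For the mean of the 4 primary granule genes, the closest were Tsc22d1 (r = 0.996), a leucine zipper factor, Aqp9 (0.989), a water and glycerol channel, and Cd28 (0.988), a co-stimulatory receptor known from T cells. Cd28 was at 1624 to 1833 in KO progenitors, 17 to 30.6 in WT pro-B cells and 4621, 224, 55.8 and 3490.1 in recipients 1300, 1301, 1302 and 1308. Aqp9 was at 73.1 to 104, at 0 and at 98.6, 17.2, 0 and 221 in the same groups.

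For the mean of S100a8, S100a9, Ngp, Camp and Ltf, the closest genes were Chil3 (r = 0.994), AI467606 (0.989) and Rnf11 (0.988). Chil3 encodes a chitinase-like protein of specific granules and macrophages, and was at 22.3 to 53.3 in KO progenitors, 0 in WT pro-B cells and 4044, 99.7, 21.1 and 4585 in the leukaemias. For Lyz2, the closest were Gda (r = 0.989), guanine deaminase, Decr2 (0.986), a peroxisomal enzyme of fatty acid oxidation, and Lcn2 (0.981). Gda was at 5.75 to 15.2 in KO progenitors, 0 in WT pro-B cells and 539, 54.1, 81.9 and 1914 in the leukaemias.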

How the data were processed

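RNA came from cells sorted into lysis buffer, and SMART-Seq v4, a full-length chemistry without strand information, was used for cDNA, per the labels' protocols. The submitters' processing notes name fastp, STAR 2.7.8a, featureCounts and the build mm39. Which annotation was used, and what was done with reads that match several genes, is not stated in the sources at hand. The deposited signal values are read counts that the authors had scaled, so that 1 read is worth 0.722 to 1.38 depending on the library, as the values themselves show. Every value was a whole multiple (100.0%, tolerance 0.001) of the lowest value above 0 in its library, and this gave back whole reads for depths, length-scaled levels and exact Poisson intervals at the 95% level. No column was left out. In all, 21780 identifiers matched a symbol in GENCODE M21 (GRCm38), used for names, transcript lengths and gene order. The 13 mitochondrial coding genes were at 0, and give no sign of RNA quality.

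The 12200 genes that reached 10 in 4 or more of the 12 libraries were tested with limma 3.58.1 in R 4.3.3 (trend, robust, two-sided) on log2(value + 1). This scale understates the change of low genes. Each fit used only the 8 libraries compared, because the leukaemias varied more than the fetal liver libraries. P-values were Benjamini-Hochberg adjusted over all tested genes, with a threshold of 0.05. A group at 0 was set to 3 reads per library for fold changes, which covers counting error only. Alternatives were a fit to all 12 libraries, edgeR 4.0.16 (quasi-likelihood) and DESeq2 1.42.0 on recovered reads, CPM, pseudocounts of 8 and 0.25, no filter or a minimum of 50, each library left out, and a replicate block. Fits were tested on simulated data, where false calls exceeded the nominal share in each comparison, most with limma in the 2 comparisons with leukaemias. Adjusted p-values near the threshold there may therefore be too small. Unchanged genes in the simulation had a common mean in both groups, unlike members with no read in WT pro-B cells. The excess for such members was not tested. Motifs were searched with Python 3.11.15.

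The members and gene lists were chosen with earlier results of these data known. Named genes were the members, Pax5, Cebpa, Cebpe, Gfi1, Spi1 and Lyz1, up to 4 genes per list that ranked first by adjusted p in each comparison and up to 2 with the highest level in each group, 2 neighbours on each side of the members, and the 3 genes with the highest correlation with each of 3 profiles.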

Additional observations from a re-analysis of the deposited data

Results flagged for a closer look

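Within groups of 4 libraries, 89 sets of values of the genes named above were examined for a single library far from the others (its gap to the nearest other library over the whole range, on the log2 scale, above Dixon's critical value), and 10 were found. Chance gives about 1 in 20 such sets, but that does not hold for the 4 sets in which the other 3 libraries were at 0 (Ctsg, Cebpa, Lyz1 and Cfd), since any single library with a read then stands apart.

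Among the members, Elane was at 22.2 in Pax5 KO library 2, below the 54.8 to 59.1 of the others. Prtn3 was at 4.00 in Pax5 WT library 2, below 11.3 to 13.8. Ctsg was at 2.00 in Pax5 WT library 2 and at 0 in the other 3. S100a8 was at 195 in Pax5 KO library 1, above 137 to 145.

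Among the regulators, Cebpa was at 1.00 in Pax5 WT library 2 and 0 in the others, and Gfi1 was at 44.3 in the B-ALL of recipient 1308, below 224 to 280.0. Lyz1 was at 1.72 in Pax5 WT library 4 and Cfd at 1.44 in Pax5 KO library 4, each with 0 in the other 3 libraries. Tsc22d1 was at 16680.0 in Pax5 KO library 3, below 17240.0 to 17340.0. Cd28 was at 1624 in Pax5 KO library 2, below 1803 to 1833.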

How the results depend on the processing

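The number of genes called in Pax5 KO against Pax5 WT was 7901, and 4193 with all 12 libraries in 1 fit. In P80R B-ALL against Pax5 KO it was 4683, from 3118 without Pax5 KO replicate 3 to 5315 without recipient 1308 when single libraries were left out. The members called there numbered 4, from 1 (without Pax5 KO replicate 2 or 3) to 6 (without recipient 1302) with 1 library left out, and Elane turned to -2.12 without recipients 1300 and 1308. With edgeR the 5 called members were all higher and with DESeq2 all 6, since Mpo and Prtn3 no longer passed.

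Over single members, 152 of 154 alternatives kept their side of the threshold and direction in Pax5 KO against Pax5 WT, 145 of 154 in P80R B-ALL against Pax5 WT and 118 of 154 in P80R B-ALL against Pax5 KO. The share of calls that were higher in the last comparison was 45.9%, and it was 35.5% with CPM, 57.9% with edgeR and 57.4% with DESeq2. The median of all genes moved from -0.11 to -0.26, 0.06 and 0.08 in these, and from -0.0036 to 0.12 with DESeq2 in P80R B-ALL against Pax5 WT.

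With the replicate block, 7987 genes and 9 members were called in Pax5 KO against Pax5 WT. Replicate numbers are shared between those groups, but same-numbered libraries correlated by only 0.0049 to 0.062 in their deviations from the group means, and not every library correlated best with its own number.

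Camp had 14 reads in all of Pax5 KO. No alternative planned was left out.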
